A study of Homo sapiens with 6 samples.

Results

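The autophagy and lysosome genes described here are a list of 53 symbols, picked by name for their known roles, without a threshold on any measured value, though earlier results of these data were known when the list was drawn up: genes of autophagy initiation and conjugation, cargo receptors, the TFEB family of transcription factors, and lysosomal membrane proteins and hydrolases. They were taken by exact symbol from the 57781 rows of the count table, where all 53 were found, and 51 of them were among the 15125 genes with enough counts to be tested. The libraries came from A549 cells, an established line of non-small cell lung cancer, and the study asked how gene expression changes once METTL3, the catalytic subunit of the m6A RNA methylation writer complex, is knocked down. There were 3 libraries of vector-control cells, whose genotype is given as WT, and 3 libraries of cells with a METTL3 knockdown (shMETTL3). Both groups grew in DMEM with serum, and no starvation, lysosomal inhibitor or other agent is named for either. The knockdown columns are numbered sh1 to sh3. Whether these are different hairpins or 1 hairpin in 3 cultures, and whether the libraries of a group came from separate cultures, is not given for these libraries. The study states in general that experiments were repeated independently, without naming the sequencing. The p-values measure the spread between these libraries, which may be technical.

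Autophagy wraps cytoplasm in a double membrane, the autophagosome, and delivers it to the lysosome for breakdown. The ULK1 kinase complex starts the process, a phosphatidylinositol 3-kinase (PI3-kinase) complex containing beclin 1 marks the growing membrane, and ubiquitin-like enzymes attach LC3 and GABARAP proteins to it, which cargo receptors then bind. The lysosome supplies the acid hydrolases, and TFEB, TFE3 and MITF are transcription factors known to switch on lysosomal and autophagy genes through a palindromic promoter element called CLEAR. The libraries report steady-state mRNA in bulk cultures, not autophagic flux, protein or methylation, and in bulk RNA fewer cells of a type and less RNA per cell cannot be told apart.

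METTL3 fell in every knockdown library. Its level, in CPM, the gene's count relative to the library total as scaled by edgeR's TMM factors, was 49.4, 50.6 and 49.5 CPM in vector replicates 1, 2 and 3 and 18.9, 19.9 and 19.3 CPM in shMETTL3 replicates 1, 2 and 3 (log2 fold change -1.36, standard error 0.0673, adjusted p = 4.57e-16). An exact two-sided permutation test gave p = 0.1, the smallest that 3 libraries against 3 allow. Library totals ran from 14931426 to 19108928 counts. Of 13 lung epithelial and A549 markers, 10 had over 3 counts in every library, whereas NKX2-1, SFTPB and SFTPC, which mark lung lineage and alveolar cells, stayed below 1 CPM on average in both groups. The summed level of these 13 markers lay between 30205 and 31561 CPM in the vector libraries and between 18729 and 19376 CPM in the shMETTL3 libraries, with 8 of the 13 called lower and 2 higher. The largest fall was that of EPCAM (log2 fold change -2.73), and the rises were those of AKR1C1 (0.21) and SFTPB (from 0.0961 to 0.854 CPM on average). Leukocyte markers summed to 0.947 to 1.68 CPM against 6.39 to 7.81 CPM, of which CD14 made up 6.31 CPM on average in the shMETTL3 libraries, with PTPRC, CD163 and CD3E at or near 0. CSF1R, also over 3 counts in every library, went the other way, from 0.725 to 0.54 CPM on average, and was not called (log2 fold change -0.46). LYZ averaged 0.0603 and 0.263 CPM. Of the 5 fibroblast markers, 2 had over 3 counts in every library, and the sum of the 5 was 6.41 to 9.56 CPM against 13.8 to 14.4 CPM. On average COL1A1 made up 5.64 and 10.5 CPM of it and LUM 2.26 and 3.07 CPM, with COL1A2, DCN and PDGFRB near 0. The 3 endothelial markers summed to at most 0.123 CPM against 1.4 to 1.95 CPM. CDH5 carried this, at 0.0409 and 1.61 CPM on average, with VWF at 0 and KDR at 0 and 0.0383 CPM. PECAM1, also listed, was not found by its symbol. The part of these shifts in the values given here was not tested.

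The promoter elements are shown first, because they are the sequence feature that links the TFEB family to its targets. RefSeq promoter sequences, from 250 bases before to 50 bases after each gene's start, were found for 46 of the 53 members and searched on both strands for GTCACGTG or its reverse complement CACGTGAC, the core of the CLEAR element, which also holds the E-box CACGTG. The core stood in 7 member promoters, or 15.2%, against 2.53% of all 27305 promoters of the same length and 17.8% of 118 promoters of other autophagy and lysosome genes. All promoters include those of genes not tested here, so this background is not like the members. Counting tested genes alone, 453 held the core and 10182 did not, beside 7 and 37 among the members. For each of these 7 promoters a single element is shown with its flanks, 30 bases on the gene's strand, with positions on GRCh37. Capitals mark the core, or in GAA and MCOLN1 the core extended to the full palindrome, which was also searched.
ATG14, minus strand of chr14:55878551-55878580: aaacaaaatccCACGTGACtggctctcctc
ATG3, minus strand of chr3:112280788-112280817: gagagtctagtGTCACGTGaggccccggtg
CTSA, plus strand of chr20:44519938-44519967: gcgccggagttCACGTGACtcgtacacatg
CTSD, minus strand of chr11:1785186-1785215: ccggccgcgccCACGTGACcggtccgggtg
GAA, plus strand of chr17:78075337-78075366: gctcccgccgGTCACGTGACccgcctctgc
LAMP1, plus strand of chr13:113951542-113951571: gcggcgcagctCACGTGACaagcgctgccg
MCOLN1, plus strand of chr19:7587484-7587513: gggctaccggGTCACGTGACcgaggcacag
The full palindrome occurred in 2 member promoters, those of GAA and MCOLN1 (4.35%, against 0.381% of all promoters). Counting tested genes alone, 85 held it and 10550 did not, beside 2 and 42 among the members. LAMP1 held 6 elements within its window, and ATG3, CTSA, GAA and MCOLN1 held 2 each. The longest is shown, and at equal length the one farthest downstream, which in LAMP1 is the one nearest to the gene's start. A match is a description of these letters and not a measured binding site.

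These 7 genes did not move together. CTSD, GAA and LAMP1 rose, MCOLN1 fell, and ATG14, ATG3 and CTSA did not pass the test. Their median log2 fold change was -0.03, against 0.12 for the 37 tested members whose promoter held no core. Among the other autophagy and lysosome genes, the 20 tested with the core had a median of -0.02 and the 91 without 0.08, whereas the 6 with the full palindrome had a median of 0.37 and the 105 without it 0.07. Over all tested genes with a promoter sequence, the 85 with the full palindrome had a median of -0.04 and the 10550 without it 0.03. For the core these medians were 0.02 for 453 genes with it and 0.03 for 10182 without. Both members with the full palindrome changed, GAA by a log2 fold change of 0.47 and MCOLN1 by -0.48. No promoter sequence was found for MAP1LC3A, LAMP2, CTSB, PSAP, HEXA, UVRAG and RB1CC1.

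Among the 51 tested members, 31 changed at an adjusted p under 0.05, 22 of them higher and 9 lower after METTL3 knockdown. This is 60.8% of the members, beside 66.6% of all tested genes called in either direction, 33.7% called higher and 32.9% called lower. The median absolute log2 fold change was 0.21 among the members and 0.41 over all tested genes. Only 6 called members changed by at least 1 on the log2 scale, where 17.6% of all tested genes did, and 10 changed by at least 0.5, where 39.1% did. The groups did not overlap for 34 members, beside a background of 69.4%. The median log2 fold change was 0.12 over the members and 0.0022 over all tested genes. The members' median was 0.0668 without vector replicate 3. Scaling moves small changes: with library totals alone, in place of TMM, the median was 0.29 over the members and 0.18 over all tested genes, and 37 members were called, 31 of them higher (83.8% of the called members, against 71.0% under TMM). Over all called genes the same change of scaling moved the share called higher from 50.6% to 65.8%.

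Early and late steps are given apart, beside the background of 66.6% called and 33.7% called higher. Of the 30 tested members that build the autophagosome or bind cargo, 14 changed, or 46.7%, with 9 higher and 5 lower and a median log2 fold change of 0.06. Of the 18 tested lysosomal members, 15 changed, or 83.3%, with 12 higher and 3 lower and a median of 0.22. In the plot of fold changes by role, the initiation genes lie close to 0 and 6 of the 7 cathepsins to the right. The difference between these lists was not tested.

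**Figure D1:**
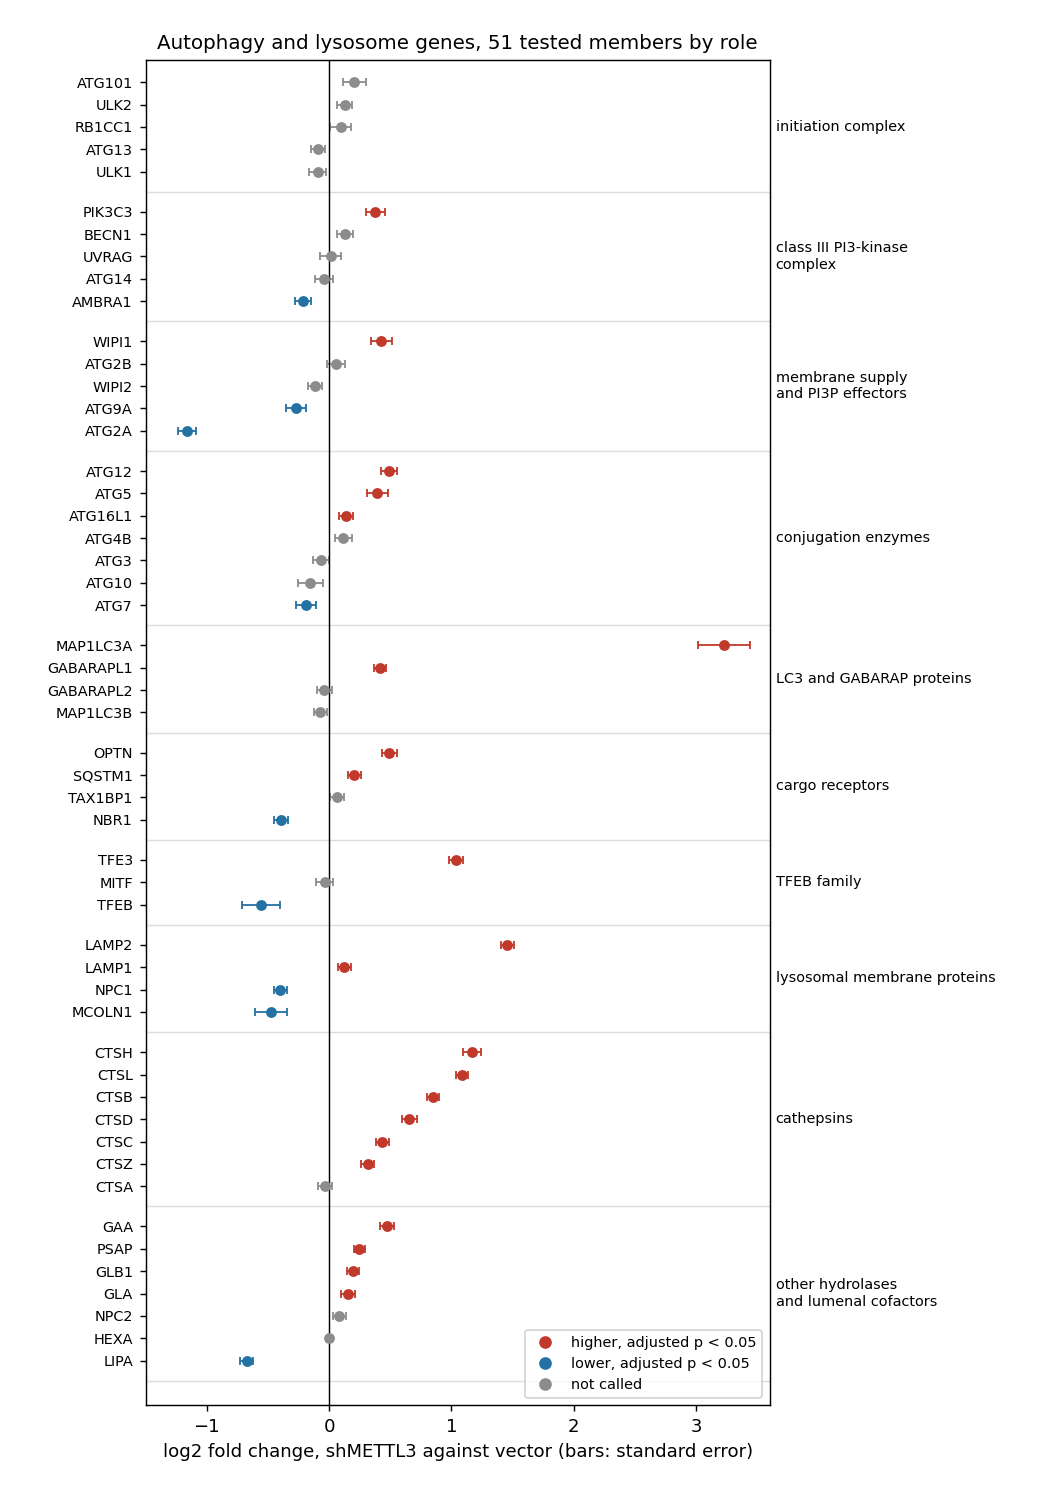
Log2 fold change of shMETTL3 against vector for each of the 51 tested members, grouped by role, with bars for the standard error (none is drawn for HEXA, whose fold change of 0 gives no usable one). The horizontal axis is on a log2 scale, red marks genes higher and blue genes lower at an adjusted p under 0.05, and grey marks genes not called. MAP1LC3A lies farthest right at 3.23 and ATG2A farthest left at -1.16.

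None of the 5 genes of the ULK complex, which initiates autophagy, passed the test under TMM scaling: the kinases ULK1 and ULK2, the subunits ATG13 and ATG101 that hold the complex together, and RB1CC1, the scaffold also called FIP200. Their adjusted p-values from edgeR's quasi-likelihood test ran from 0.0508 to 0.322, and ATG101 alone was under 0.05 before adjustment. DESeq2 called none of them, whereas with library totals alone ULK2 (adjusted p = 0.000167), ATG101 (adjusted p = 0.00107) and RB1CC1 (adjusted p = 0.0132) were called higher. Their log2 fold changes lay between -0.09 for ULK1 and 0.21 for ATG101. ATG101 was at 25.3, 18.2 and 22.4 CPM in the vector libraries and 25.4, 27.0 and 23.6 CPM in the shMETTL3 libraries, so the groups overlapped. It was called in 7 of 14 alternatives, at adjusted p-values from 0.00107 with library totals alone to 0.0456 with limma-voom, among them without vector replicate 1 (adjusted p = 0.0045) and without shMETTL3 replicate 3 (adjusted p = 0.0351). ULK1 and RB1CC1 also passed without vector replicate 1, at log2 fold changes of -0.17 (adjusted p = 0.0322) and 0.20 (adjusted p = 0.0361). ULK2, at 38.7 to 40.6 CPM against 41.6 to 44.7 CPM, was the 1 initiation gene whose groups did not overlap, and it also passed with upper-quartile scaling (adjusted p = 0.0374) and with at least 10 counts in every library (adjusted p = 0.043).

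The PI3-kinase complex, which makes the lipid PI3P on the forming membrane, changed in 2 of its 5 genes, in opposite directions. PIK3C3, the lipid kinase itself, was at 23.2, 22 and 22.7 CPM in the vector libraries and 32.2, 30.3 and 25.4 CPM in the shMETTL3 libraries. It rose by a log2 fold change of 0.38 (standard error 0.0811, adjusted p = 0.000191). AMBRA1, a regulator of beclin 1, fell from 42.2 ± 3.11 to 36.3 ± 1.19 CPM (SD, n = 3), a log2 fold change of -0.22 (adjusted p = 0.00632, and 0.6 with scaling by library totals alone). The core subunit BECN1 (0.13), ATG14 (-0.04) and UVRAG (0.01), alternative partners of beclin 1 in its autophagy and endosomal complexes, did not pass, and 20.8% of the exon bases of ATG14 overlap FBXO34 on the opposite strand. BECN1 had an adjusted p of 0.0754, and passed in 4 alternatives: library totals alone (adjusted p = 0.000409), upper-quartile scaling (adjusted p = 0.0377), at least 10 counts in every library (adjusted p = 0.044) and without shMETTL3 replicate 2 (adjusted p = 0.0483).

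In the group that supplies membrane and reads PI3P, 3 of 5 genes changed. ATG2A and ATG2B are paralogs whose proteins transfer lipid into the growing membrane. ATG2A was at 39.9, 37.3 and 44.6 CPM in the vector libraries and 18.0, 18.2 and 18.3 CPM in the shMETTL3 libraries, the largest fall of any member (log2 fold change -1.16, standard error 0.0763, adjusted p = 2.45e-13). ATG2B was at 41.7, 35.2 and 33.1 CPM against 39.4, 37.8 and 37.5 CPM, with overlapping groups and a log2 fold change of 0.06 (adjusted p = 0.506). ATG9A, the scramblase of the vesicles that seed the autophagosome, was at 30.9, 32 and 37.4 CPM against 25.7, 26.7 and 30.7 CPM, so its groups nearly touched (log2 fold change -0.27, adjusted p = 0.0042, and 0.29 with scaling by library totals alone). In the annotation used here, 38.8% of its exon bases are shared with another protein-coding entry on the same strand, which is not a row of the table. The annotation of the counting is not given, so the effect on its count is unknown. Of the PI3P-binding proteins, WIPI1 rose by a log2 fold change of 0.43 (adjusted p = 7.93e-05), though 24.4% of its exon bases overlap ARSG on the opposite strand and whether reads were counted by strand is not given. WIPI2, at 73.4 to 77.2 CPM against 67.8 to 71.6 CPM, missed the threshold (log2 fold change -0.11, adjusted p = 0.0648), and passed without vector replicate 1 (adjusted p = 0.0402).

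The conjugation enzymes attach LC3 and GABARAP proteins to lipid, and 4 of 7 changed. ATG12 and ATG5, which are joined covalently into the ligase, both rose. ATG12 was at 37.7, 39.6 and 35.7 CPM in the vector libraries and 52.2, 51.5 and 55.2 CPM in the shMETTL3 libraries (log2 fold change 0.49, standard error 0.0631, adjusted p = 1.27e-07). ATG5 was at 22.8, 26.5 and 19.9 CPM against 32.6, 29 and 29.1 CPM (log2 fold change 0.39, adjusted p = 0.000229). ATG16L1, which places that ligase on the membrane, rose by 0.14 on the log2 scale (adjusted p = 0.0316), and lost its call without vector replicate 1 (adjusted p = 0.0805), vector replicate 2 (adjusted p = 0.0997) or shMETTL3 replicate 3 (adjusted p = 0.216), with DESeq2 (adjusted p = 0.0622) and with no filter on low counts (adjusted p = 0.0877). ATG7, the activating enzyme shared by both conjugation routes, fell by 0.19 on the log2 scale (adjusted p = 0.0453), and was not called by DESeq2 (adjusted p = 0.0965) or without vector replicate 2 or 3 or shMETTL3 replicate 1 or 3 (adjusted p from 0.0647 to 0.187). The transfer enzymes ATG3 (-0.06) and ATG10 (-0.15) and the protease ATG4B (0.12), which trims and releases LC3, did not pass, with adjusted p-values of 0.403, 0.186 and 0.122.

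The largest change of any member was in the LC3 group. MAP1LC3A encodes LC3A, a form close to the LC3B commonly used to stain autophagosomes. Its counts were 8, 15 and 18 in vector replicates 1, 2 and 3 and 139, 150 and 130 in shMETTL3 replicates 1, 2 and 3, or 0.446, 0.898 and 1.10 CPM against 7.20, 7.48 and 8.19 CPM. The gene was close to the counting floor of 3 reads in the vector libraries and well above it in every shMETTL3 library. The rise was 9.37-fold (log2 fold change 3.23, standard error 0.216, adjusted p = 3.2e-13), and leaving out single libraries gave log2 values from 2.91 to 3.50. MAP1LC3B, which encodes LC3B, was at 138, 150 and 147 CPM in the vector libraries and 132, 142 and 140.1 CPM in the shMETTL3 libraries, with overlapping groups (log2 fold change -0.07, adjusted p = 0.235, and 0.10 on the log2 scale with library totals alone).

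GABARAPL1, of the GABARAP branch that is tied to late steps of autophagosome closure and fusion, was at 194, 199.6 and 196 CPM in the vector libraries and 264, 268 and 258 CPM in the shMETTL3 libraries. It rose by a log2 fold change of 0.42 (standard error 0.0485, adjusted p = 1.98e-08). Its relative GABARAPL2 overlapped between groups, at 66.7, 67.1 and 57.6 CPM against 62.5, 60.8 and 63.2 CPM (log2 fold change -0.04, adjusted p = 0.593). GABARAP itself had between 2 and 10 counts in every library and was not tested. In the annotation, 35.4% of its exon bases are shared with a same-strand entry that is not a row of the table, and this overlap's part in the low count was not tested. Of the 39 protein-coding genes within 250 kb of GABARAP, 7 were at 0 in every library. Near copies may share reads with these genes, and how reads that fit both were counted is not given. MAP1LC3B2, a copy of MAP1LC3B, was at 1.59 to 2.23 CPM against 1.40 to 2.33 CPM, and GABARAPL3 had no count.

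Shares within the group rest on the near-0 count of GABARAP, which is not read as the absence of its mRNA. As a share of the summed CPM per kilobase of exon of the 5 genes, GABARAPL1 made up 48.9% ± 0.648 in the vector and 54.2% ± 0.945 in the shMETTL3 libraries (SD, n = 3). MAP1LC3B went from 29% ± 1.02 to 22.9% ± 0.608 and MAP1LC3A from 0.712% ± 0.295 to 5.53% ± 0.363. By the length of the canonical transcript, MAP1LC3A made up 0.355% and 2.87%, and GABARAPL1 43.8% and 50.6%. LC3A mRNA was thus still the lowest of the 4 tested members of the group on this scale after its rise.

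**Figure D2:**
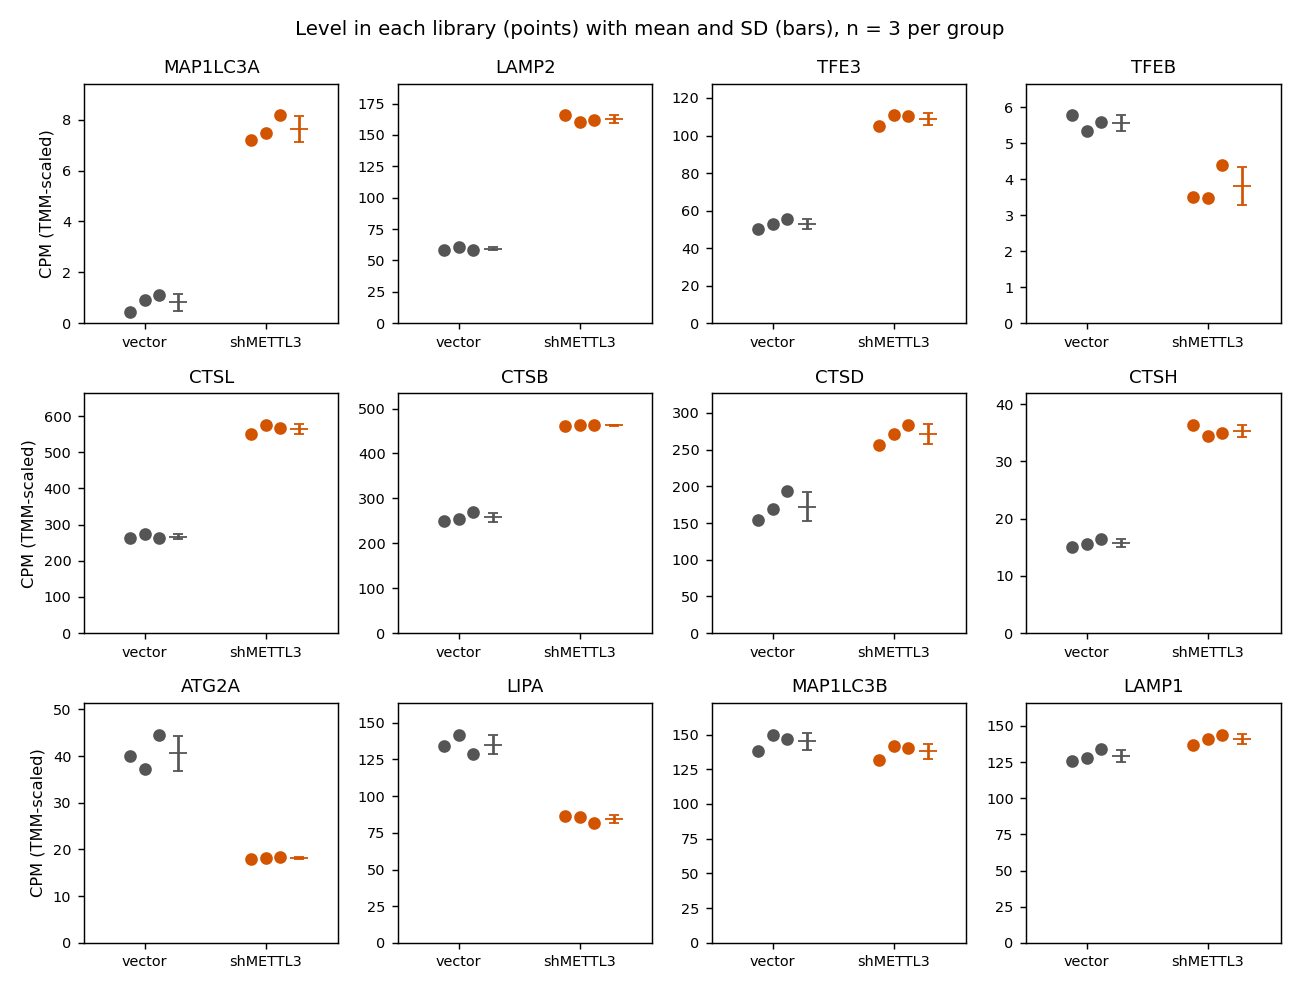
Level in each of the 6 libraries for the members with the largest changes and for MAP1LC3B and LAMP1, in TMM-scaled CPM on linear axes from 0, with points for single libraries and bars for the mean and SD of 3. MAP1LC3A, LAMP2, TFE3, CTSL, CTSB, CTSD and CTSH stand higher in all 3 shMETTL3 libraries and ATG2A, LIPA and TFEB lower, whereas MAP1LC3B overlaps between groups.

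Of the 4 cargo receptors, which link ubiquitinated cargo to LC3, 3 changed. OPTN, a receptor for damaged mitochondria and bacteria, was at 54.8, 56.8 and 52.3 CPM in the vector libraries and 70.9, 81.5 and 78.4 CPM in the shMETTL3 libraries (log2 fold change 0.49, standard error 0.0608, adjusted p = 5.86e-08). SQSTM1 encodes p62, the receptor whose protein builds up when autophagy stalls, and was at 435, 457 and 474 CPM against 508, 519 and 551 CPM. Its groups did not overlap and its log2 fold change was 0.21 (adjusted p = 0.000865), with 21.0% of its exon bases overlapping MRNIP on the opposite strand. NBR1, a receptor that works with p62, fell from 189, 172 and 169 CPM to 136, 139.8 and 128 CPM (log2 fold change -0.39, standard error 0.0546, adjusted p = 4.51e-07). TAX1BP1 overlapped between groups at 119 to 142 CPM against 135 to 139.9 CPM (log2 fold change 0.07, adjusted p = 0.316).

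The 3 transcription factors of the TFEB family each behaved differently. TFE3 was at 50.4, 53.1 and 55.7 CPM in the vector libraries and 105, 111 and 110.5 CPM in the shMETTL3 libraries, and rose 2.06-fold (log2 fold change 1.04, standard error 0.0561, adjusted p = 3.35e-15). TFEB was low throughout, at 5.79, 5.33 and 5.58 CPM against 3.52, 3.49 and 4.41 CPM, and fell to 67.9% of its vector level (log2 fold change -0.56, standard error 0.154, adjusted p = 0.00222). MITF overlapped between groups at 29.8 to 34.5 CPM against 30.1 to 32.2 CPM (log2 fold change -0.04, adjusted p = 0.671). TFE3 was the most abundant of the 3 per length in both groups, with a share of the family's CPM per kilobase of exon that went from 71.0% ± 2.36 to 84.4% ± 0.784 (SD, n = 3). The share of TFEB went from 4.66% ± 0.236 to 1.84% ± 0.228. With the length of the canonical transcript in place of all exons, the share of TFE3 was 64.0% and 80.2%, and that of TFEB 9.47% and 3.95%. These are mRNA levels. The family is regulated largely by where its proteins sit in the cell, which was not measured here.

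Each of the 4 lysosomal membrane proteins changed, 2 up and 2 down. LAMP1 and LAMP2 are the abundant glycoproteins that line the lysosomal membrane, and LAMP2 also serves chaperone-mediated autophagy and autophagosome fusion. LAMP2 was at 58.7, 60.6 and 58.5 CPM in the vector libraries and 166, 160.2 and 162 CPM in the shMETTL3 libraries, a 2.75-fold rise (log2 fold change 1.46, standard error 0.0526, adjusted p = 4.9e-19). LAMP1 was at 126, 128 and 134 CPM against 137, 141 and 144 CPM (log2 fold change 0.12, adjusted p = 0.0335). Its call was lost without vector replicate 1 (adjusted p = 0.129), vector replicate 2 (adjusted p = 0.103), shMETTL3 replicate 2 (adjusted p = 0.0922) or shMETTL3 replicate 3 (adjusted p = 0.127), and with no filter on low counts (adjusted p = 0.102). NPC1, which exports cholesterol from the lysosome, fell from 91.2, 87.6 and 89.4 CPM to 69.8, 67.1 and 66.4 CPM (log2 fold change -0.40, standard error 0.0534, adjusted p = 2.41e-07). Its lumenal partner NPC2, which hands cholesterol to NPC1, was at 83.5 to 88.2 CPM against 88.9 to 92.7 CPM and did not pass (log2 fold change 0.08, adjusted p = 0.169). MCOLN1, the calcium channel TRPML1, was low and fell from 7.74, 8.38 and 10.2 CPM to 5.90, 5.94 and 7.12 CPM (log2 fold change -0.48, standard error 0.133, adjusted p = 0.00268).

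The 7 member cathepsins, proteases of the lysosome, had the highest median log2 fold change of the role groups, 0.66, with 6 higher and none lower, where 33.7% of all tested genes were higher. Their summed level was 1051, 1096 and 1147 CPM in the vector libraries and 1764, 1797 and 1816 CPM in the shMETTL3 libraries. CTSL, an endopeptidase, was at 262, 275 and 262 CPM against 550.3, 576 and 566 CPM and rose 2.12-fold (log2 fold change 1.08, standard error 0.0494, adjusted p = 7.89e-17). CTSB, a cysteine protease that can also trim ends, was at 249, 254 and 269 CPM against 460.1, 463 and 464 CPM (log2 fold change 0.85, standard error 0.0493, adjusted p = 1.87e-14). CTSD, the main aspartic protease, was at 154, 169 and 193 CPM against 257, 272 and 284 CPM (log2 fold change 0.66, standard error 0.0624, adjusted p = 4.74e-10). None of these groups came close to overlapping. Of the exon bases of CTSD, 22.9% are shared with a same-strand entry and 23.4% overlap PRADX on the opposite strand, though neither is a row of the table.

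The aminopeptidase CTSH had the largest change among these 7 at a lower level, from 15.1, 15.5 and 16.5 CPM to 36.4, 34.4 and 35 CPM (log2 fold change 1.17, standard error 0.0748, adjusted p = 1.4e-13). CTSC, which activates serine proteases of immune cells, and CTSZ, a carboxypeptidase, rose by 0.43 (adjusted p = 3.85e-08) and 0.31 (adjusted p = 3.89e-06) on the log2 scale, and 31.7% of the exon bases of CTSZ overlap NELFCD on the opposite strand. CTSA did not pass. It encodes the serine carboxypeptidase that protects beta-galactosidase and neuraminidase, and was at 124, 126 and 144 CPM in the vector libraries and 126, 127 and 131 CPM in the shMETTL3 libraries (log2 fold change -0.03, adjusted p = 0.614). With scaling by library totals alone it too was called higher (0.14, adjusted p = 0.0242).

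Of the 7 other tested hydrolases and lumenal cofactors, 4 rose and 1 fell. LIPA, the acid lipase that splits cholesteryl esters and triglycerides, was at 134, 142 and 129 CPM in the vector libraries and 86.4, 85.5 and 81.7 CPM in the shMETTL3 libraries. This was the second largest fall of any member (log2 fold change -0.67, standard error 0.0539, adjusted p = 1.55e-11). GAA, the acid glucosidase that breaks down glycogen, rose from 92.3, 94.3 and 110 CPM to 136, 137 and 139 CPM (log2 fold change 0.47, standard error 0.0588, adjusted p = 6.47e-08). PSAP, the precursor of the saposins that help degrade sphingolipids, rose from 1584 ± 29.3 to 1880.5 ± 26.3 CPM (SD, n = 3; log2 fold change 0.25, adjusted p = 5.22e-05).

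GLB1, the beta-galactosidase, rose by a log2 fold change of 0.19 (adjusted p = 0.00154). GLA, an alpha-galactosidase, rose by 0.15 (adjusted p = 0.0178), and was not called without vector replicate 1 (adjusted p = 0.0988), vector replicate 2 (adjusted p = 0.0575) or shMETTL3 replicate 3 (adjusted p = 0.0711), or with no filter on low counts (adjusted p = 0.056). HEXA, the alpha subunit of beta-hexosaminidase, was at 26.7, 31.3 and 30.5 CPM against 25.9, 32.1 and 30.4 CPM, with fully overlapping groups (adjusted p = 0.998). NEU1, the lysosomal sialidase, was listed at 0 in all 6 libraries, which at these depths allows up to 0.15 to 0.189 CPM. Of the 38 protein-coding genes within 250 kb of it, 30 were also at 0 in every library, so the 0 is not read as the absence of its mRNA.

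Levels can be compared between genes only per length. In CPM per kilobase of exon, PSAP was the highest member in both groups, at 508 ± 9.41 in the vector and 604 ± 8.45 in the shMETTL3 libraries (SD, n = 3). In the vector libraries SQSTM1 (60.4 ± 2.63), GABARAPL1 (48.6 ± 0.638) and CTSL (43.6 ± 1.23) came next. In the shMETTL3 libraries the order was CTSL (92.3 ± 2.13), SQSTM1 (69.8 ± 2.97) and GABARAPL1 (64.9 ± 1.26). The order also depends on the length used: per kilobase of canonical transcript, CTSL stood at 161 in the vector libraries, beside 160.4 for SQSTM1 and 105 for GABARAPL1. MAP1LC3A was the lowest tested member in the vector libraries, at 0.708 ± 0.292, and TFEB in the shMETTL3 libraries, at 0.566 ± 0.0775. Exon length includes rare isoforms and can understate a gene. CTSZ stood at 6.56 on this scale in the vector libraries and at 84.7 CPM per kilobase of its canonical transcript.

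**Figure D3:**
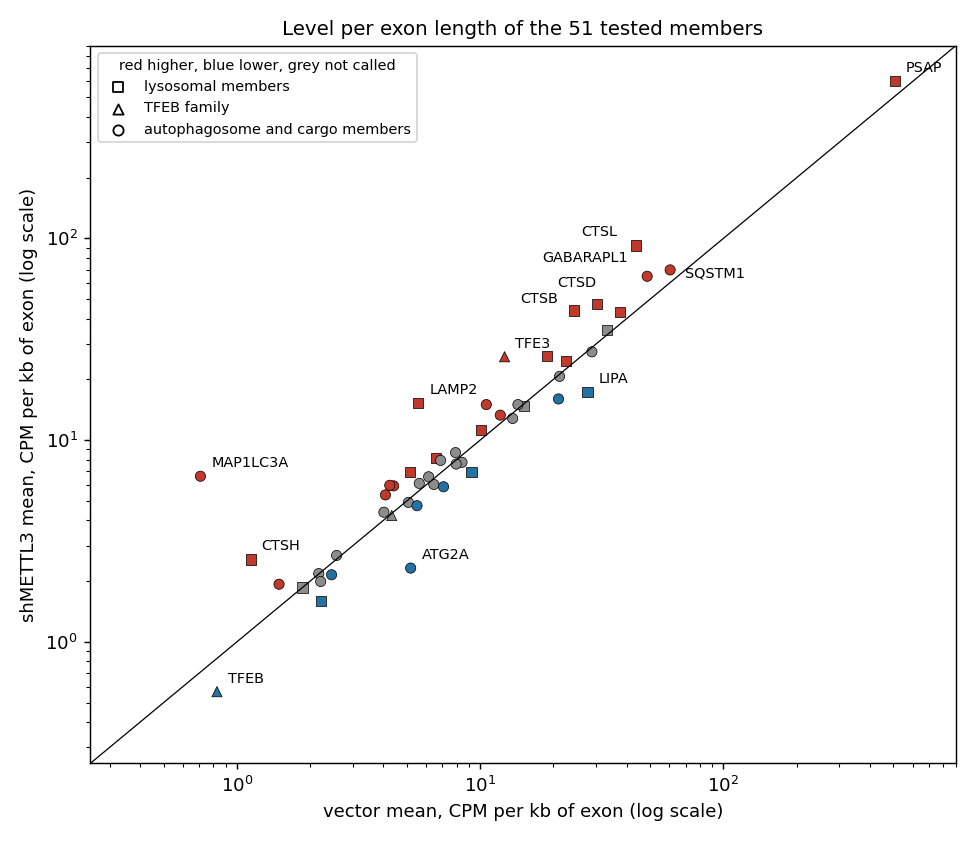
Mean level of each of the 51 tested members in the 3 vector libraries against the 3 shMETTL3 libraries, in CPM per kilobase of exon on log axes, with a line of equal level. Points above the line are higher in shMETTL3: PSAP lies at the top right, MAP1LC3A, LAMP2, CTSL and TFE3 stand above the line, and ATG2A, LIPA and TFEB stand below it.

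Paralogs and related genes whose fold changes differed were set against each other within each library, in 6 ratios chosen after their values were seen. The log2 ratio of LAMP2 to LAMP1 went from -1.13 ± 0.0637 in the vector to 0.21 ± 0.0587 in the shMETTL3 libraries (SD, n = 3), a ratio of reads that takes no account of length. Per kilobase of exon LAMP2 stayed below LAMP1 in both groups, at 5.57 beside 22.5 CPM in the vector and 15.3 beside 24.6 CPM in the shMETTL3 libraries. The ratio of TFE3 to TFEB rose by 1.6 and that of ATG2A to ATG2B fell by 1.22 on the log2 scale. The other 3 differences were 3.39 for MAP1LC3A to MAP1LC3B, 0.45 for GABARAPL1 to GABARAPL2 and 1.11 for CTSL to CTSA. Since the pairs were chosen for these differences, the ratios are a description and no test is given.

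There were 3 members on chromosome X, LAMP2, TFE3 and GLA, and each was called higher. Among the members and the other autophagy and lysosome genes listed, 10 tested genes were on chromosome X, and all 10 were higher, with a median log2 fold change of 1.01. The 190 on numbered chromosomes had a median of 0.06, with 78 higher and 47 lower. The same held across the table, where 361 of 437 tested genes on chromosome X were higher and 23 lower (median 0.74), against 4421 higher and 4492 lower of 13130 on numbered chromosomes (median -0.0042). The part of the chromosome in the rise of LAMP2, TFE3 and GLA was not tested. Without chromosome X, 28 of 48 members changed, 19 higher and 9 lower, and 13 of 16 lysosomal members changed, with 10 higher.

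**Figure D4:**
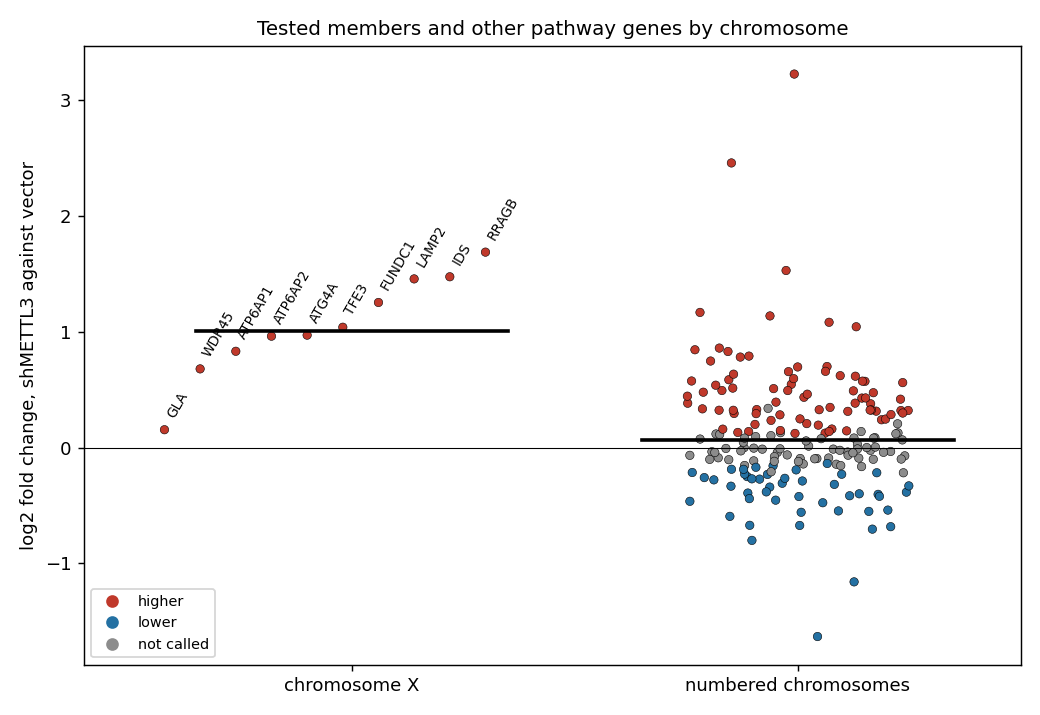
Log2 fold change of shMETTL3 against vector for tested members and other autophagy and lysosome genes, split into the 10 on chromosome X, which are named, and the 190 on numbered chromosomes, with a bar at each median (1.01 and 0.06). All 10 points on chromosome X lie above 0, whereas those on the numbered chromosomes lie on both sides.

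Outside the 53 members, 160 other genes of the pathway were listed by role, and 150 were tested. Of these, 105 changed, or 70.0%, beside the background of 66.6%, with 66 higher and 39 lower and a median log2 fold change of 0.08. Other cargo receptors rose in 9 of 12 genes and fell in 1 (8 of 11 higher without chromosome X), beside 33.7% of all tested genes called higher. FUNDC1, a mitophagy receptor on chromosome X, rose by 1.25 (adjusted p = 4.6e-13), and RETREG1, a receptor for the endoplasmic reticulum, fell by 0.70 (adjusted p = 3.99e-09), both on the log2 scale.

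Fusion of the autophagosome with the lysosome held a large fall. VAMP8, the SNARE protein that pairs with syntaxin 17 in fusion, was at 71.9, 76.1 and 78.0 CPM in the vector libraries and 23.6, 24.8 and 24.5 CPM in the shMETTL3 libraries (log2 fold change -1.63, standard error 0.0631, adjusted p = 2.19e-18). Of this list of 16, 56.2% were called, beside a background of 66.6% called, 33.7% higher and 32.9% lower. The number called ran from 6, with DESeq2 or without shMETTL3 replicate 3, to 12 with library totals alone. VAMP8 was the only gene of the list called lower, while 8 were called higher and 7 were not called. The largest of those rises was that of YKT6, a SNARE with a parallel role in fusion, from 106, 108 and 106 CPM to 160.3, 155 and 162 CPM (log2 fold change 0.58, adjusted p = 9.09e-11).

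Further hydrolases and cofactors were called higher in 19 and lower in 9 of 38 tested genes, or 73.7% called, beside a background of 66.6% called, 33.7% higher and 32.9% lower. CTSS, a cathepsin best known from antigen-presenting cells, was at 4.46, 4.91 and 3.49 CPM in the vector libraries and 23.6, 23 and 24.4 CPM in the shMETTL3 libraries (log2 fold change 2.46, standard error 0.111, adjusted p = 5.91e-17). Of the 5 cathepsins on this list, looked at together after their values were seen, CTSS, CTSF and CTSO rose, CTSV fell (log2 fold change -0.44, adjusted p = 0.00368) and CTSK was not called. The rise of CTSF was 1.53 on the log2 scale (adjusted p = 5.16e-18). CTSS is also expressed by leukocytes, whose summed markers are given above, with CD14 at 0.538 and 6.31 CPM and PTPRC, the general leukocyte marker, at 0 and 0.0383 CPM on average in the vector and shMETTL3 libraries. CSF1R was at 0.725 and 0.54 CPM and was not called. The part of leukocytes in the rise of CTSS was not tested. The largest fall on this list was that of GGH, a hydrolase of folate polyglutamates, at -0.68 on the log2 scale (adjusted p = 8.41e-11). The V-ATPase, the proton pump that acidifies the lysosome, had 8 higher and 5 lower of 19 tested genes and a median of 0.0001. Its accessory gene ATP6AP2, on chromosome X, rose by 0.96 on the log2 scale (adjusted p = 1.63e-13) and its subunit gene ATP6V1F fell by 0.42 (adjusted p = 8.04e-06).

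The remaining lists moved in both directions, as did all tested genes, of which 66.6% were called, 33.7% higher and 32.9% lower. Among other autophagosome genes, 7 rose and 6 fell of 15, from the LC3 protease ATG4A (0.97, adjusted p = 5.16e-09, chromosome X) to its relative ATG4D (-0.55, adjusted p = 4.41e-06). Among further lysosomal membrane proteins, 5 rose and 6 fell of 16, with OSTM1, a partner of the lysosomal chloride transporter, at 0.86 (adjusted p = 1.22e-10) and the ion channel TMEM175 at -0.80 (adjusted p = 6.11e-05). In the list for mannose 6-phosphate sorting, which sends new hydrolases to the lysosome, 4 rose and 2 fell of 9. The largest rise was that of SORT1, at 0.66 (adjusted p = 2.08e-09), a sorting receptor that does not itself read mannose 6-phosphate. The adaptor GGA2 was at -0.29 (adjusted p = 5.62e-05). That list had 3 called genes without shMETTL3 replicate 2. In nutrient signalling to TFEB, through mTORC1 and the Rag GTPases, 6 rose and 9 fell of 25. The Rag GTPase RRAGB, on chromosome X, rose by 1.69 on the log2 scale (adjusted p = 1.71e-13), and LAMTOR4, a subunit of the Ragulator that anchors the Rags, fell by 0.67 (adjusted p = 2.15e-09).

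**Figure D5:**
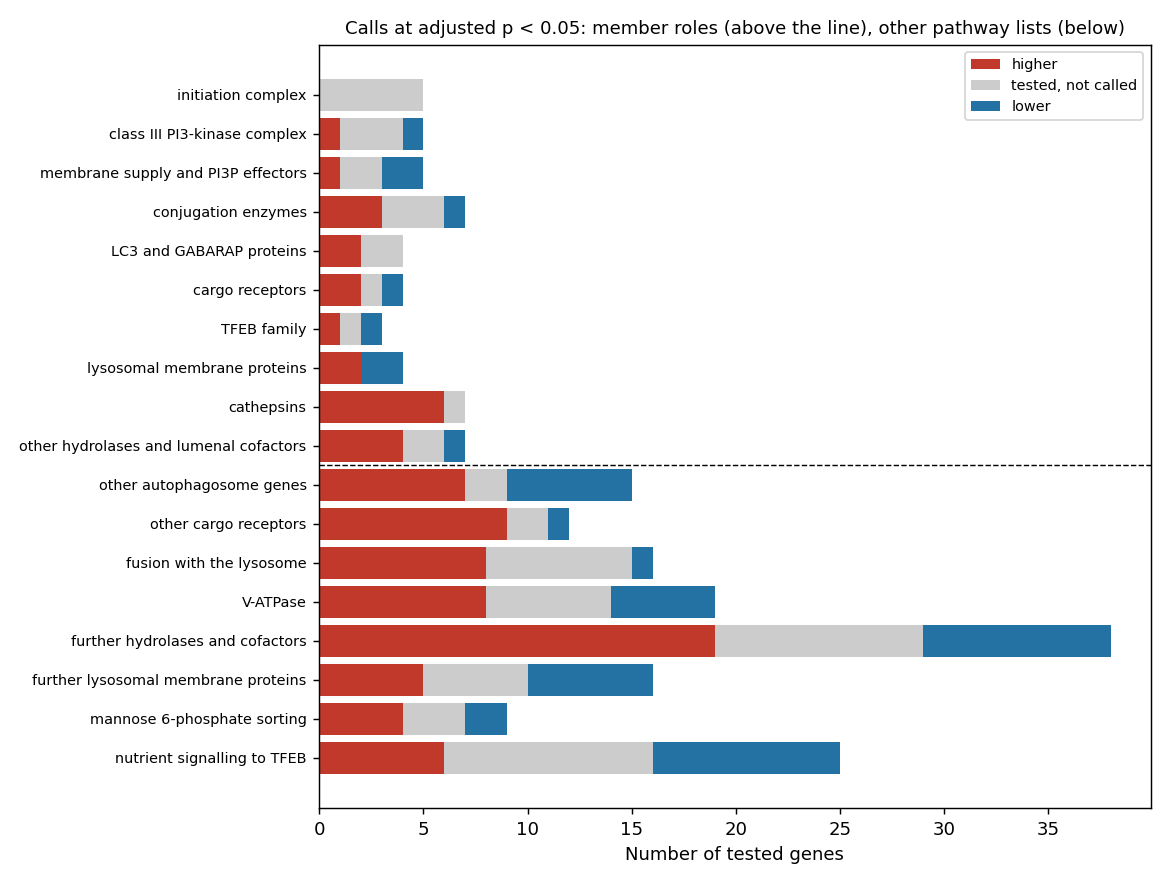
Number of tested genes called higher (red), called lower (blue) or not called (grey) at an adjusted p under 0.05, for each role group of the members and each list of other autophagy and lysosome genes. The bars start at 0 and their length is the number tested: the initiation complex has no called gene, 6 of 7 cathepsins are higher, and further hydrolases hold 19 higher and 9 lower.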

How the data were processed

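RNA sequencing of 3 vector and 3 shMETTL3 libraries of A549 cells was analysed. The authors mapped reads to hg19 and counted them per gene, and the deposited values are raw whole-number counts for 57781 rows named by symbol. Per the labels, the submitters' processing notes list cutadapt 3.0, HISAT2 2.2.1, SAMtools 1.13 and HTSeq 0.13.5; the paper's methods name other versions of HISAT2 and htseq. The annotation and the strand setting are not given in the sources used here. Total counts per library were 14931426 to 19108928, so that 3 counts, taken as the floor, equal 0.15 to 0.189 CPM, which covers counting error only.

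Counts were analysed in R 4.3.3 with edgeR 4.0.16 (TMM, filterByExpr, glmQLFit, glmQLFTest, group only), with Benjamini-Hochberg adjustment over all 15125 tested genes and a threshold of 0.05. The standard error of a log2 fold change was derived from its unshrunk estimate and F. Alternatives were DESeq2 1.42.0, limma-voom (limma 3.58.1), other scalings, filters and thresholds, a replicate block and left-out libraries. The functions were tested on simulated counts. Positions, exon lengths and overlaps came from GENCODE on GRCh37, and promoters from RefSeq (GRCh38.p14), whose printed windows were placed on GRCh37 by exact match.

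The members and lists were chosen with earlier results of these data known. METTL3 and every LC3, GABARAP and TFEB family member are named, with the 12 called members of largest absolute log2 fold change, the largest called rise and fall of each role group, all members not called or not tested, and the largest called rise and fall of each other list at an average log2 CPM of at least 2. Further called members were named to complete their role groups. Replicate numbers share no stated origin, and deviations of same-numbered libraries correlated at -0.00663 to 0.0516, so no block was used in the reported fit. No column was left unused.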

Additional observations from a re-analysis of the deposited data

How the results depend on the processing

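Of the 31 called members, 25 kept their call and direction in all 14 alternatives (13 for MAP1LC3A, which did not reach 10 counts in every library), 6 lost the call in at least 1, and 0 reversed. ATG7 lost it in 9 (among them library totals alone, adjusted p = 0.893, upper-quartile scaling, DESeq2 and both other filters), ATG16L1 and LAMP1 in 5 each, GLA in 4, and AMBRA1 (adjusted p = 0.6) and ATG9A (adjusted p = 0.29) with library totals alone. Of the 20 members not called, 11 were called somewhere. Library totals alone gave a median log2 fold change of 0.18 over all tested genes and called 37 members, 31 higher (83.8% of those called, against 71.0% under TMM), while over all called genes the share higher was 65.8% against 50.6%. Under that scaling the fold changes of members not called turned from lower to higher for ULK1 (0.0812), ATG13 (0.0875), ATG14 (0.13), WIPI2 (0.0597), ATG3 (0.11), ATG10 (0.02), MAP1LC3B (0.10), GABARAPL2 (0.14), MITF (0.14), HEXA (0.17) and CTSA (0.14, adjusted p = 0.0242). HEXA was also at 0.023 with upper-quartile scaling and 0.018 with at least 10 counts in every library, and UVRAG was at -0.0005 with no filter. With 1 library left out, members not called that changed sign ranged from -0.0407 to 0.20 (RB1CC1), -0.10 to 0.0052 (ATG14), -0.0345 to 0.0433 (UVRAG), -0.0168 to 0.16 (ATG2B), -0.11 to 0.0041 (ATG3), -0.0072 to 0.12 (TAX1BP1), -0.0917 to 0.0144 (MITF), -0.0798 to 0.0312 (CTSA) and -0.075 to 0.0882 (HEXA).

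With a minimum absolute log2 fold change of 0.5, 10 members changed (7 higher, 3 lower), and with 1, 6 changed (5 higher, 1 lower). The members' median log2 fold change was 0.14 with upper-quartile scaling, 0.29 with library totals alone, 0.0932 with no filter and 0.0887 without chromosome X, an alternative chosen after seeing the data. With 1 library left out, 27 to 32 members were called, the median was 0.0668 to 0.12, and the mannose 6-phosphate list had 3 to 5 called genes. The replicate block called 32 members, 23 higher and 9 lower, with a median of 0.12; among the members it changed only the call of ATG101 (adjusted p = 0.0383). The causes were not tested. The low counts of MAP1LC3A in the vector libraries limit the precision of its fold change.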
